A study of Mus musculus with 9 samples.

Results

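Astrocytes carry a cytoskeleton of intermediate filaments, and an injury or an inflammatory stimulus makes them raise some of the proteins of that network together with surface and signalling molecules, a state called reactivity. Transcripts of 10 genes of this kind were followed in the paraventricular thalamus (PVT), which is a nucleus near the midline of the thalamus with a role in wakefulness. They are 4 filament genes (Gfap, Vim, Nes and Synm), the calcium-binding protein gene S100b, the hyaluronan receptor gene Cd44, and Tgm1, Emp1, Sphk1 and Cd109, which are known as members of a set induced in astrocytes after ischaemia and often called A2-type. The genes were picked by name, and they and the lists and motifs used below were chosen with earlier results of these data known. Their shares set beside those of all genes are therefore descriptive. All 10 genes had a row among the 21899 genes of the count table, as well as enough counts to be tested with 14837 genes in all.

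The tissue came from wild-type mice that received an intraperitoneal injection of lipopolysaccharide (LPS), which comes from the outer membrane of bacteria and acts through the receptor TLR4, or of phosphate-buffered saline (PBS). There were 3 groups of 3 libraries each: LPS at 7 days after the injection, LPS at 1 day, and PBS at 1 day. Because no PBS group of the later day was analysed here, day and treatment cannot be told apart where LPS at 7 days is set against PBS. Per the labels, total RNA was extracted from fresh PVT tissue, and whether each library is a separate mouse is not said, so p-values measure the spread between these libraries.

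In the mature brain GFAP is the principal filament protein of astrocytes and copolymerises with vimentin, while nestin and synemin need a partner filament to assemble. Nestin is abundant in neural progenitors and vimentin and nestin are also made by endothelial cells. GFAP, vimentin and CD44 are used as markers of reactive astrocytes, and S100b and GFAP mark astrocytes at rest as well, S100b being made by oligodendrocytes too.

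Library totals ran between 13211422 and 17210526 counts. Of the cell type markers, the 16 homeostatic astrocyte genes summed to 6570 to 6646 CPM (counts scaled to a common, normalised library size) in LPS at 7 days, 6463 to 6495 CPM in LPS at 1 day and 5902 to 5952 CPM in PBS. The libraries stood apart in other ways. Genes of the Y chromosome summed to 90.9 to 102 CPM in LPS at 7 days and to 81.7 to 85.4 CPM in LPS at 1 day, but to between 0 and 0.0588 CPM in PBS, so that treatment and the presence of Y chromosome transcripts cannot be told apart against PBS. The 6 cerebellar neuron markers summed to 1123 to 1154 CPM in LPS at 7 days, against 174 to 184 CPM in LPS at 1 day and 214 to 224 CPM in PBS. Of 5 transcripts of thalamic neurons, all present in every library, Tcf7l2 was at 36.2 to 45.9 CPM in LPS at 7 days, 42.4 to 56.7 CPM in LPS at 1 day and 65.6 to 69.2 CPM in PBS. Gbx2 (5.37 to 5.62, 3.83 to 5.7 and 6.23 to 7.02 CPM), Lef1 (8.89 to 11.9, 9.98 to 10.3 and 13.6 to 15.3 CPM) and Slc17a6 (150 to 178, 134 to 136 and 195 to 202 CPM) were likewise highest in PBS. Calb2, which marks PVT neurons among others, was instead highest in LPS at 7 days, with 154 to 163 CPM, against 71.6 to 75.9 CPM in LPS at 1 day and 92.3 to 101 CPM in PBS. The part of cerebellar or other neighbouring tissue in the values of LPS at 7 days was not tested.

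A gene is said to have changed when edgeR's quasi-likelihood test, fitted to all genes and all 9 libraries, gave a Benjamini-Hochberg adjusted p under 0.05. All 10 genes changed in LPS at 1 day relative to PBS, 8 of them upward and 2 downward, in a comparison where 49.1% of all genes tested changed, 24.9% upward and 24.2% downward. A change of at least 2-fold was more unusual, with 5.20% of all genes (1.21% downward, the rest upward), and it was met by 6 of the 10, namely Gfap, Tgm1, Emp1, Sphk1 and Cd109 upward and Nes downward. The median log2 fold change of the 10 was 1.15, against -0.01 over all genes, and the median size regardless of sign was 1.28, against 0.22. The libraries of LPS at 1 day and of PBS did not overlap in any of the 10, where 54.5% of all genes did not overlap. In LPS at 7 days relative to PBS 6 of the 10 changed, 4 upward and 2 downward, where 35.6% of all genes changed, 16.8% upward and 18.9% downward. None of the 10 reached 2-fold there, where 3.65% of all genes did, 2.43% upward and 1.21% downward. The libraries did not overlap in 4 of the 10, against 44.2% of all genes. Between LPS at 7 days and LPS at 1 day all 10 differed, 3 higher and 7 lower at 7 days, where 56.6% of all genes differed, 27.5% higher and 29.1% lower. Of the 10, 5 differed by at least 2-fold, 1 higher and 4 lower, where 7.68% of all genes did, 3.17% higher and 4.51% lower. None of the 10 overlapped between the days, where 60.6% of all genes did not. In bulk tissue fewer cells of a type and less RNA per cell cannot be told apart, which holds for every level given here.

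**Figure D1:**
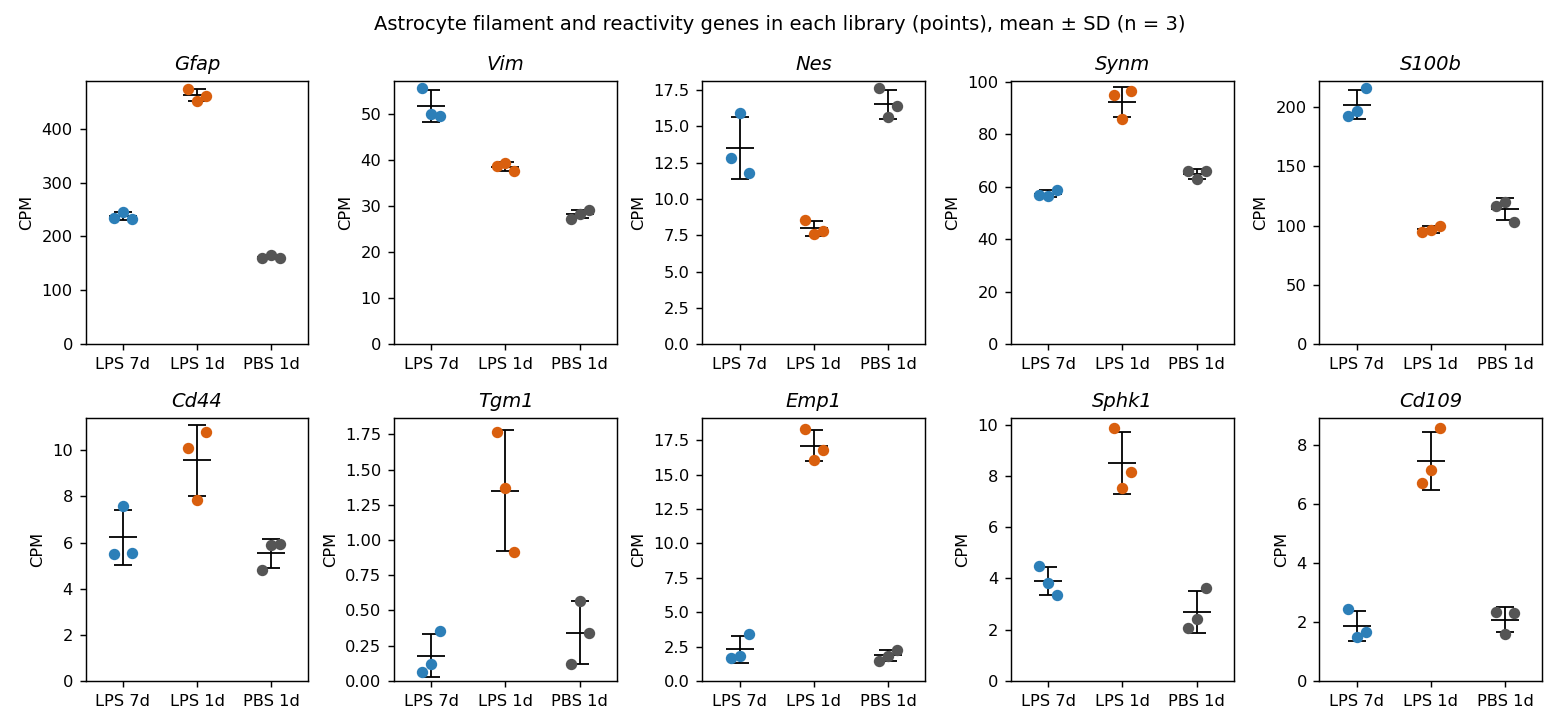
Level of each of the 10 genes in CPM (vertical axes from 0, one scale per gene) in each library, with the group mean and SD (n = 3). In all 10 genes the LPS libraries at 1 day lie apart from the PBS libraries, with Nes and S100b lower and the other 8 higher.

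The start regions of the genes with the largest differences at 1 day are shown with the motifs that a search found in them. That of Nes, which fell, is shown as well. Where a gene had several start regions, one that holds a match is shown. The sequences are RefSeq's, build GRCm38.p6, run 5′ to 3′ along the gene from 180 bases before the annotated start to 10 bases after it, and have motif matches in capitals.
Gfap, chr11:102897191-102897380 (minus strand): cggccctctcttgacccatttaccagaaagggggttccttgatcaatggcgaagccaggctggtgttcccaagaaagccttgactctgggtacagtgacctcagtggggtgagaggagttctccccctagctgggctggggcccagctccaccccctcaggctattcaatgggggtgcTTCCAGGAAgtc
Tgm1, chr14:55713483-55713672 (minus strand): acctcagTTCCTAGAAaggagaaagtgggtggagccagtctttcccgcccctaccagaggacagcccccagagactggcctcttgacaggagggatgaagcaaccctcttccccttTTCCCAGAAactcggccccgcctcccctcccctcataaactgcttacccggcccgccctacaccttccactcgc
Emp1, chr6:135362751-135362940 (plus strand): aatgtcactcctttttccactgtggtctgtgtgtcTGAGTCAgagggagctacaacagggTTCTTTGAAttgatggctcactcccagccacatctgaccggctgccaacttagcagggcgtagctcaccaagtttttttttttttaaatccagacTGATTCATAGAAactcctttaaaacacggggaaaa
Sphk1, chr11:116531657-116531846 (plus strand): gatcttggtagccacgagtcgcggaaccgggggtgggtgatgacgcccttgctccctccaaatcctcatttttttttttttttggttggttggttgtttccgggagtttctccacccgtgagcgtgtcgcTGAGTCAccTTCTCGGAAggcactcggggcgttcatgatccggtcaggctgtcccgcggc
Nes, chr3:87970913-87971102 (plus strand): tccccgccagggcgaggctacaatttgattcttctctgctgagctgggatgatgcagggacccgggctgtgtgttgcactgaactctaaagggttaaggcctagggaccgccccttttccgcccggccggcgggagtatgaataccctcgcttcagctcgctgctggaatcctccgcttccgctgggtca

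In the search, made on both strands for every motif, 9 of the 10 genes (all but Cd109) had at least 1 window of 250 bases before to 50 bases after a start, 15 windows in all. The dimer motif of STAT factors, TTCNNNGAA, which reads alike on both strands, was found in windows of 4 of the 9 genes (Gfap, Tgm1, Emp1 and Sphk1), against 9.55% of 27025 genes. Counted by window, 5 of the 15 held it, against 8.30% of 32851 windows. No window of Vim, Synm or Cd44, which also rose at 1 day, held it, nor did any of Nes or S100b, which fell. Sphk1 had 5 windows and Tgm1 and Emp1 had 2 each, a pair of the Sphk1 windows overlap and share the match, and a gene with more windows has more chances of one. In Gfap its first base lies 2 bases before the annotated start, in Tgm1 173 and 64 bases before it, in Emp1 120 and 22 bases before it, and in Sphk1 41 bases before the start shown and 115 bases before another. The AP-1 motif TGANTCA was found in Emp1, 145 and 25 bases before the start, and in Sphk1, 50 bases before the start shown and 124 bases before another, and in 8.97% of all genes. In Emp1 the nearer AP-1 match overlaps the nearer STAT match. A match to the NF-kB motif, GGG and TTTCC with 2 bases between them, lay 223 bases before the start of Vim, where 1.89% of genes have one, and the C/EBP motif TTGCNNAA was found in a second Tgm1 window, where 12.2% of genes have one. Neither the glucocorticoid response element (GNACA and TGTNC with 3 bases between them) nor the NFI motif (TTGGC and GCCAA with 5 bases between them) was in any window of the 9 genes, against 0.537% and 0.0444% of all genes. These are letter matches within the windows, and binding was not measured.

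Gfap (ENSMUSG00000020932, minus strand of chromosome 11, GRCm39 positions 102778162 to 102791738), which encodes the glial fibrillary acidic protein, had the highest level per length of the 4 filament genes described here in every group. The neurofilament genes Nefl, Nefm and Nefh and the internexin gene Ina were above Gfap in PBS and in LPS at 7 days, and below it in LPS at 1 day. In PBS they had 71.6, 57.9, 45.3 and 87.2 FPKM (fragments scaled to gene length and library total), against 38.2 FPKM for Gfap. In LPS at 7 days they had 96.9, 86.3, 84.3 and 96.9 FPKM, against 57.6 FPKM for Gfap. For Gfap, the 3 libraries of LPS at 7 days had 234, 246 and 233 CPM, those of LPS at 1 day 473, 452 and 460 CPM, and those of PBS 160, 165 and 161 CPM. No library of any group overlapped with another group, and the LPS libraries at 7 days lay between the other groups. Relative to PBS, Gfap was 2.85-fold higher in LPS at 1 day (log2 fold change 1.51 ± 0.04, SE, edgeR adjusted p = 4.35e-35). At 7 days it was 1.47-fold higher than in PBS (0.55 ± 0.04, edgeR adjusted p = 4.06e-17) and lower than at 1 day (log2 fold change -0.96 ± 0.04, edgeR adjusted p = 1.75e-27). The mean difference from PBS at 7 days was 25.3% of that at 1 day.

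Set against the other astrocyte transcripts of the same library, Gfap differed as well. For every 100 counts of the 16 homeostatic astrocyte genes there were 3.53, 3.70 and 3.55 Gfap counts in LPS at 7 days, 7.29, 6.98 and 7.12 in LPS at 1 day, and 2.71, 2.78 and 2.70 in PBS. The groups did not overlap, and the ratio of means was 2.61 for LPS at 1 day over PBS, 1.31 for LPS at 7 days over PBS and 0.504 for LPS at 7 days over LPS at 1 day. The exact permutation test, two-sided, gave p = 0.1 for each, the smallest that 3 against 3 libraries can give. The direction at 7 days depended on the astrocyte gene taken as the base: with Aldh1l1 alone the ratio to PBS was 1.37, and with Aqp4, the astrocytic water channel, it was 0.902. Aqp4 itself had 251 CPM in LPS at 7 days, 143 CPM in LPS at 1 day and 154 CPM in PBS. At 1 day the ratio was above 1 with either gene, 2.38 with Aldh1l1 and 3.08 with Aqp4.

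Vim (ENSMUSG00000026728, plus strand of chromosome 2, 13578738 to 13587637), the vimentin gene, was the only filament gene of the 4 that was higher at 7 days than at 1 day and also higher in both than in PBS. Its levels were 55.8, 50 and 49.6 CPM in LPS at 7 days, 38.8, 39.5 and 37.6 CPM in LPS at 1 day, and 27.3, 28.3 and 29.2 CPM in PBS. The 3 groups did not overlap and stood in the order 7 days, 1 day, PBS from high to low. The log2 fold change relative to PBS was 0.45 ± 0.07 at 1 day (edgeR adjusted p = 7.68e-07) and 0.87 ± 0.07 at 7 days (edgeR adjusted p = 1.7e-15), and LPS at 7 days exceeded LPS at 1 day by 0.43 ± 0.07 (edgeR adjusted p = 3.58e-07). Vimentin is also made in vessels and meninges, whose markers moved too. The 8 pericyte and smooth muscle markers summed to 381 to 394 CPM in LPS at 7 days, 280 to 291 CPM in LPS at 1 day and 259 to 269 CPM in PBS. The 10 endothelial markers summed to 404 to 415, 361 to 367 and 338 to 350 CPM in the same order, and within that list 5 genes fell and 4 rose at 1 day relative to PBS (median log2 fold change -0.18), and 6 rose and none fell at 7 days (median 0.20). The 7 fibroblast and meningeal markers summed to 88.7 to 96.4, 112 to 118 and 69.5 to 72.9 CPM in the same groups. Their part in the Vim values was not tested.

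Synm (ENSMUSG00000030554, minus strand of chromosome 7, 67379908 to 67409490) encodes synemin, a large filament protein that links filaments to other structures. It had 56.7, 56.5 and 58.9 CPM in LPS at 7 days, 95.1, 85.7 and 96.4 CPM in LPS at 1 day, and 65.9, 62.9 and 66.0 CPM in PBS. The LPS libraries were above every PBS library at 1 day and below every one at 7 days. At 1 day Synm was 1.42-fold higher than in PBS (log2 fold change 0.51 ± 0.05, edgeR adjusted p = 4.85e-11), and at 7 days it was lower by a small margin (-0.18 ± 0.06, edgeR adjusted p = 0.0103). Without PBS replicate 3 the 7-day difference was -0.16 with an edgeR adjusted p of 0.0504 and no longer passed. LPS at 7 days was below LPS at 1 day by 0.69 on the log2 scale (log2 fold change -0.69 ± 0.06, edgeR adjusted p = 1.73e-15). The whole Synm span lies under Ttc23, a gene on the other strand whose 3 libraries together held 156 counts in LPS at 7 days, 179 in LPS at 1 day and 150 in PBS. Whether counting used the strand is not given in the sources used here, so reads of the overlapping genes cannot be told apart.

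Nes (ENSMUSG00000004891, plus strand of chromosome 3, 87878385 to 87887758), the nestin gene, went the other way from the other 3 filament genes at 1 day. It had 12.8, 15.9 and 11.8 CPM in LPS at 7 days, 8.56, 7.6 and 7.79 CPM in LPS at 1 day, and 17.6, 15.6 and 16.4 CPM in PBS. The libraries at 1 day were below all others, and those at 7 days overlapped with PBS through the second library. At 1 day its level was 0.481 times that of PBS (log2 fold change -1.06 ± 0.12, edgeR adjusted p = 2.36e-10), and LPS at 7 days was above LPS at 1 day (0.76 ± 0.12, edgeR adjusted p = 5.82e-07). The difference between LPS at 7 days and PBS was small (-0.30 ± 0.11, edgeR adjusted p = 0.0296) and did not hold in every fit. It failed the threshold without the first PBS library (-0.25, edgeR adjusted p = 0.13), without the third PBS library (-0.29, 0.0629), without the first LPS library at 7 days (-0.26, 0.097) and without the third (-0.21, 0.193). It also failed with library totals as the only scaling (-0.26, edgeR adjusted p = 0.0606) and in DESeq2 (-0.29, adjusted p = 0.0726). Ependymal cell and tanycyte markers, 6 genes from cells that can hold nestin, summed to 20.7 to 22.3 CPM in LPS at 7 days, 15.8 to 21.4 CPM in LPS at 1 day and 26.3 to 29.9 CPM in PBS, and their part in the Nes values was not tested.

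**Figure D2:**
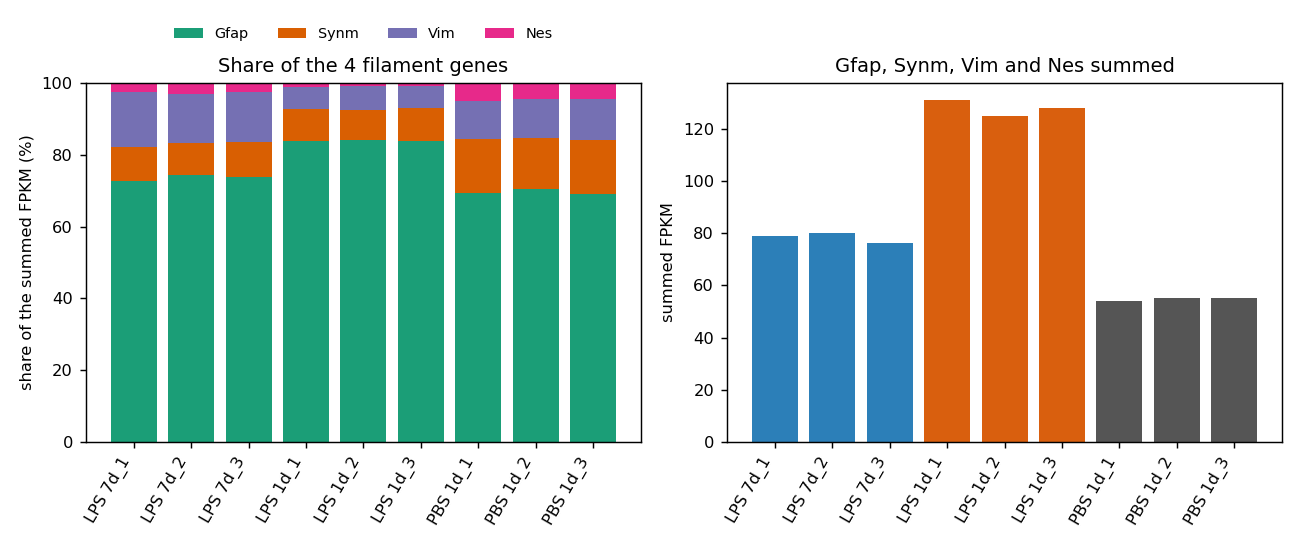
Left, the share of Gfap, Synm, Vim and Nes in the sum of their 4 levels per length (FPKM) in each library, in percent. Right, that sum in FPKM from 0. The Gfap share averages 83.9% in LPS at 1 day, above the 73.5% of LPS at 7 days and the 69.6% of PBS.

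Levels of different genes were compared only per length, as FPKM. The 4 filament genes together summed to 78.3 ± 1.95 FPKM in LPS at 7 days, 128 ± 3.03 FPKM in LPS at 1 day and 54.8 ± 0.567 FPKM in PBS (SD, n = 3 each). Gfap made up 73.5% ± 0.827 of that sum in LPS at 7 days, 83.9% ± 0.193 in LPS at 1 day and 69.6% ± 0.744 in PBS. The share of Vim was 14.3% ± 0.999, 6.24% ± 0.257 and 10.8% ± 0.328 in the same groups, so it was lowest at 1 day although the Vim level was not. Synm contributed 9.44% ± 0.42 in LPS at 7 days, 8.93% ± 0.422 in LPS at 1 day and 14.9% ± 0.46 in PBS, and Nes 2.74% ± 0.366, 0.953% ± 0.0384 and 4.68% ± 0.312 in the same groups. At 1 day the filament transcripts were thus higher in sum and held a larger part of Gfap, and at 7 days the part of Vim was the largest of the 3 groups.

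S100b (ENSMUSG00000033208, plus strand of chromosome 10, 76089687 to 76096993), which encodes a calcium-binding protein that astrocytes also secrete, did not share the course of Gfap. Its levels were 193, 197 and 216 CPM in LPS at 7 days, 94.7, 96.2 and 100 CPM in LPS at 1 day, and 117, 120 and 103 CPM in PBS. All LPS libraries at 7 days were above, and all those at 1 day below, the PBS libraries. At 1 day S100b was at 0.854 times its PBS level (log2 fold change -0.23 ± 0.05, edgeR adjusted p = 0.000257). At 7 days it was 1.78-fold higher than in PBS (0.83 ± 0.05, edgeR adjusted p = 4.14e-20) and 2.08-fold higher than at 1 day (1.06 ± 0.05, edgeR adjusted p = 3.2e-24). S100b shares 1731 bases of its 7307-base span with Dip2a on the other strand. Because the use of the strand in counting is not given, the reads cannot be told apart there. Dip2a had 153 ± 4.13 CPM in LPS at 7 days, 113 ± 5.26 CPM in LPS at 1 day and 140 ± 3.83 CPM in PBS (SD, n = 3 each). Its log2 fold change had the same sign as that of S100b in each comparison, with -0.31 ± 0.05 at 1 day relative to PBS, 0.13 ± 0.04 at 7 days relative to PBS and 0.44 ± 0.05 between the days. The 6 oligodendrocyte markers summed to 9292 to 9919 CPM in LPS at 7 days, 6924 to 6954 CPM in LPS at 1 day and 6933 to 7295 CPM in PBS. The 4 markers of Bergmann glia, the astrocytes of the cerebellar cortex, summed to 74.6 to 80.2, 55 to 60.8 and 51.9 to 57.6 CPM in the same groups. Gene by gene, 3 of these 4 rose by at least 2-fold and 1 fell at 7 days relative to PBS (median log2 fold change 1.34). Over all genes 2.43% rose by at least 2-fold there. Neither list's part in the S100b, Vim or Gfap values at 7 days was tested.

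Cd44 (ENSMUSG00000005087, minus strand of chromosome 2, 102641486 to 102732010) encodes a surface receptor for hyaluronan that reactive astrocytes, and many blood-derived cells, carry. It was measured at 5.52, 7.59 and 5.56 CPM in LPS at 7 days, 10.1, 7.85 and 10.8 CPM in LPS at 1 day, and 4.82, 5.88 and 5.93 CPM in PBS. The libraries at 1 day were above all others, and the LPS libraries at 7 days overlapped with PBS. Cd44 was 1.73-fold higher in LPS at 1 day than in PBS (log2 fold change 0.79 ± 0.16, edgeR adjusted p = 3.41e-05) and lower at 7 days than at 1 day (-0.62 ± 0.15, edgeR adjusted p = 0.000481). The 7-day difference from PBS was 0.17 ± 0.16 (edgeR adjusted p = 0.453), with a normal 95% interval from -0.15 to 0.49. The 7 markers of infiltrating myeloid cells summed to 0.473 to 0.864 CPM in LPS at 7 days, 1.16 to 1.5 CPM in LPS at 1 day and 0.886 to 1.16 CPM in PBS, none of them had enough counts to be tested, and the neutrophil gene Ly6g had no count in any library.

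Emp1 (ENSMUSG00000030208, plus strand of chromosome 6, 135339543 to 135360171), which encodes epithelial membrane protein 1, a small membrane protein of the PMP22 family, had the largest difference of the 10. It had 1.65, 1.79 and 3.43 CPM in LPS at 7 days, 18.3, 16.1 and 16.8 CPM in LPS at 1 day, and 1.47, 1.84 and 2.25 CPM in PBS. The LPS libraries at 1 day were far above all others, and those at 7 days overlapped with PBS apart from the third library, which was above it. These levels rest on 27, 29 and 58 counts in LPS at 7 days, 238, 259 and 276 counts in LPS at 1 day, and 25, 29 and 33 counts in PBS. Emp1 was 9.26-fold higher in LPS at 1 day than in PBS (log2 fold change 3.21 ± 0.18, edgeR adjusted p = 1.81e-20) and fell again at 7 days relative to 1 day (-2.88 ± 0.17, edgeR adjusted p = 4.89e-20). At 7 days relative to PBS the log2 fold change was 0.33 ± 0.25 (edgeR adjusted p = 0.324, normal 95% interval -0.16 to 0.81).

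Sphk1 (ENSMUSG00000061878, plus strand of chromosome 11, 116421751 to 116427501) encodes sphingosine kinase 1, which makes the lipid mediator sphingosine 1-phosphate. It had 4.47, 3.83 and 3.37 CPM in LPS at 7 days, 9.87, 7.54 and 8.16 CPM in LPS at 1 day, and 2.06, 2.4 and 3.61 CPM in PBS. The libraries at 1 day were the highest, and the third PBS library lay among those of LPS at 7 days. It was 3.18-fold higher in LPS at 1 day than in PBS (log2 fold change 1.67 ± 0.19, edgeR adjusted p = 2.64e-10) and lower at 7 days than at 1 day (-1.12 ± 0.18, edgeR adjusted p = 3.79e-07). The 7-day difference from PBS was 0.54 ± 0.21 (edgeR adjusted p = 0.0371) and did not hold in every fit. It failed without the first PBS library (0.38, edgeR adjusted p = 0.22), without the second (0.48, 0.119), without the first LPS library at 7 days (0.43, 0.159) and without the second (0.56, 0.0667). DESeq2 gave 0.55 with an adjusted p of 0.0594, and edgeR on the compared groups alone 0.55 with an adjusted p of 0.0529.

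Cd109 (ENSMUSG00000046186, plus strand of chromosome 9, 78522828 to 78623535) encodes a membrane-anchored protein that binds transforming growth factor beta. It had 2.45, 1.48 and 1.66 CPM in LPS at 7 days, 6.71, 7.16 and 8.58 CPM in LPS at 1 day, and 2.35, 1.58 and 2.32 CPM in PBS. The libraries at 1 day stood above all others, and LPS at 7 days spanned the range of PBS. Its level was 3.60-fold higher in LPS at 1 day than in PBS (log2 fold change 1.85 ± 0.21, edgeR adjusted p = 2.27e-10) and lower at 7 days than at 1 day (-2.01 ± 0.21, edgeR adjusted p = 1.3e-11). At 7 days relative to PBS it was -0.16 ± 0.26 (edgeR adjusted p = 0.664, normal 95% interval -0.66 to 0.34).

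Tgm1 (ENSMUSG00000022218, minus strand of chromosome 14, 55937466 to 55951383) encodes transglutaminase 1, an enzyme that cross-links proteins, and was the rarest of the 10. The libraries held 1, 2 and 6 counts in LPS at 7 days, 23, 22 and 15 counts in LPS at 1 day, and 2, 9 and 5 counts in PBS. The libraries at 1 day did not overlap with the others, and the LPS libraries at 7 days overlapped with PBS. Tgm1 was 3.87-fold higher in LPS at 1 day than in PBS (log2 fold change 1.95 ± 0.50, edgeR adjusted p = 0.00104) and lower at 7 days than at 1 day (-2.82 ± 0.56, edgeR adjusted p = 2.7e-05). At 7 days relative to PBS the log2 fold change was -0.86 ± 0.73 (edgeR adjusted p = 0.38), with a wide normal 95% interval of -2.29 to 0.56. Single libraries moved these values: without the third LPS library at 7 days the difference between the days was -3.74 and that between 7 days and PBS -1.79, and without the second PBS library the difference at 1 day from PBS was 2.54 and that at 7 days -0.27.

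**Figure D3:**
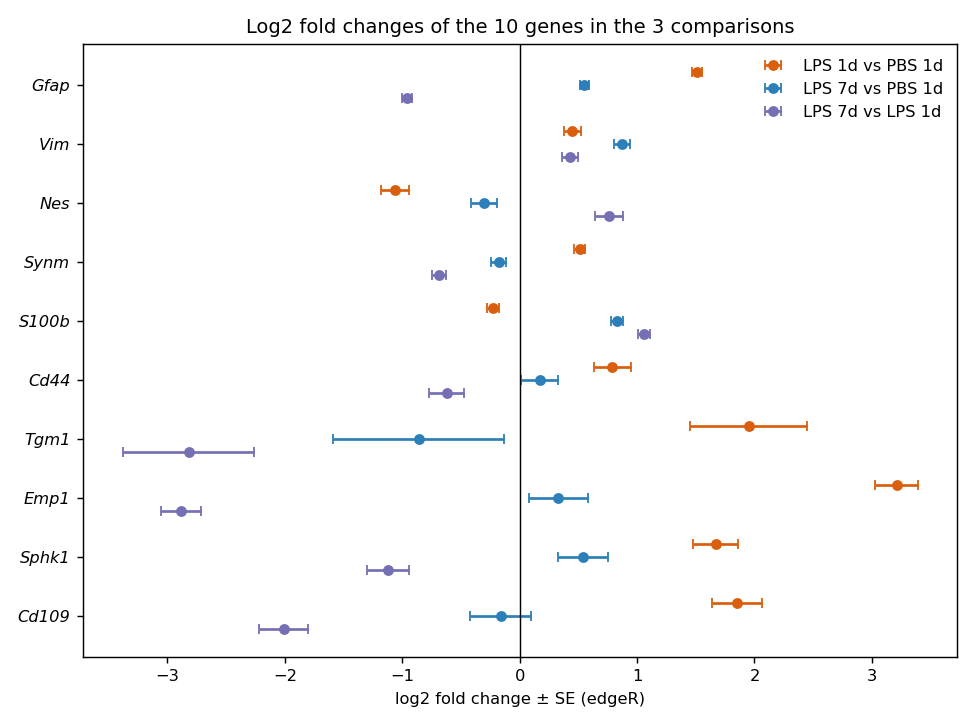
Log2 fold change ± SE (horizontal axis, edgeR) of each of the 10 genes in the 3 comparisons. Emp1 has the largest change at 1 day relative to PBS, at 3.21, and S100b and Vim are the highest at 7 days relative to PBS, at 0.83 and 0.87.

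Ranked by FPKM, the order of the 10 genes changed most at 1 day. In LPS at 7 days S100b was first with 139 ± 7.52 FPKM, ahead of Gfap with 57.6 ± 1.65, Vim with 11.2 ± 0.835, Synm with 7.39 ± 0.143 and Nes with 2.15 ± 0.334 (SD, n = 3). Gfap led in LPS at 1 day with 108 ± 2.49 FPKM, followed by S100b with 64.2 ± 1.82, Synm with 11.4 ± 0.715, Vim with 8 ± 0.207 and Emp1 with 2.83 ± 0.186. In PBS S100b was first with 76.1 ± 6.15 FPKM and Gfap second with 38.2 ± 0.706, before Synm with 8.14 ± 0.203, Vim with 5.93 ± 0.226 and Nes with 2.56 ± 0.145. None of these neighbours overlapped over their 3 libraries. Below them the ranges of Cd44 and Sphk1 overlapped in each group, as did those of Emp1 and Cd109 in LPS at 7 days and in PBS, and those of Cd44, Nes and Cd109 in turn in LPS at 1 day. Tgm1 was last in each group, at 0.0579 FPKM in LPS at 7 days, 0.42 FPKM in LPS at 1 day and 0.108 FPKM in PBS.

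The 5 genes with the pattern most like that of Gfap, by Pearson's r of log2 CPM over the 9 libraries among 13998 genes with a mean of at least 1 CPM, were Apod (0.998), Htra1 (0.998), C4b (0.993), Il4ra (0.992) and Tapbp (0.992). Apod, the apolipoprotein D gene, averaged 133 CPM in LPS at 7 days, 291 CPM in LPS at 1 day and 87.2 CPM in PBS. Htra1, a secreted serine protease, averaged 129, 206 and 102 CPM in the same groups, and the complement gene C4b, which has a near-identical copy that could share its reads, 34.6, 68.2 and 25.5 CPM. The 5 most like Nes were Rims3 (0.985), Dusp3 (0.983), Bdnf (0.978), Igdcc4 (0.976) and Wdr11 (0.976). Bdnf, which encodes a neurotrophin, averaged 16.7 CPM in LPS at 7 days, 9.43 CPM in LPS at 1 day and 18.7 CPM in PBS. The libraries fall into 3 separate groups and share the normalisation, so these r describe a ranking of group levels and carry no test.

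Of 29 tested genes on 3 published lists of reactive astrocytes, 22 rose, 1 fell and 6 did not pass in LPS at 1 day relative to PBS, where 24.9% of all genes rose and 24.2% fell. Among these 29 were 10 pan-reactive genes, of which 8 rose and 1 fell in LPS at 1 day relative to PBS, with a median log2 fold change of 2.19. Serpina3n, an acute-phase protease inhibitor, averaged 431 ± 7.05 CPM in LPS at 1 day and 68.4 ± 5.1 CPM in PBS (log2 fold change 2.65 ± 0.05, edgeR adjusted p = 1.34e-42). Osmr, a receptor of the interleukin 6 family, rose by 2.73 ± 0.11 on the log2 scale (edgeR adjusted p = 1.25e-26) and Cp, the ceruloplasmin gene, by 1.6 ± 0.08 (edgeR adjusted p = 7.61e-24). The exception that fell was S1pr3, a receptor for the lipid that Sphk1 makes, at -0.39 ± 0.12 (edgeR adjusted p = 0.00763). This call was lost without the first PBS library (-0.32, edgeR adjusted p = 0.0534) and without the second LPS library at 1 day (-0.30, edgeR adjusted p = 0.0713). At 7 days relative to PBS 3 of the 10 pan-reactive genes rose and none fell, with a median of 0.27, and Osmr was among them (0.61 ± 0.13, edgeR adjusted p = 0.000177). Over all genes 16.8% rose and 18.9% fell there.

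The 11 tested genes of the set called A1-type, induced in astrocytes by systemic LPS, included 9 that rose and 2 that did not pass at 1 day, with a median of 1.45. Of the 8 A2-type genes among the 29, which leave out Tgm1, Emp1, Sphk1 and Cd109, 5 rose and 3 did not pass, with a median of 1.69. Genes of both published sets were thus raised at 1 day in the bulk tissue. Among them were Gbp2 (2.41 ± 0.13, edgeR adjusted p = 1.58e-21) and Serping1 (2.08 ± 0.13, 1.69e-19) of the first, and Cd14 (1.93 ± 0.18, 8.13e-13) and Ptgs2 (1.6 ± 0.14, 4.76e-14) of the second. Which cells of the tissue carried these transcripts was not tested. The same holds for Tgm1, Emp1, Sphk1 and Cd109. At 7 days relative to PBS the A1-type genes split into 2 that rose, 3 that fell and 6 that did not pass, and the A2-type genes into 2 that rose and 6 that did not pass. Over all genes 16.8% rose and 18.9% fell there. B3gnt5, a glycosyltransferase, was the A2-type gene with a course of its own. It averaged 4.56 ± 0.76 CPM in LPS at 7 days, 0.65 ± 0.228 CPM in LPS at 1 day and 0.702 ± 0.504 CPM in PBS, with a log2 fold change of 2.70 ± 0.32 at 7 days relative to PBS (edgeR adjusted p = 6.8e-10), which was 3.44 without the second PBS library.

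**Figure D4:**
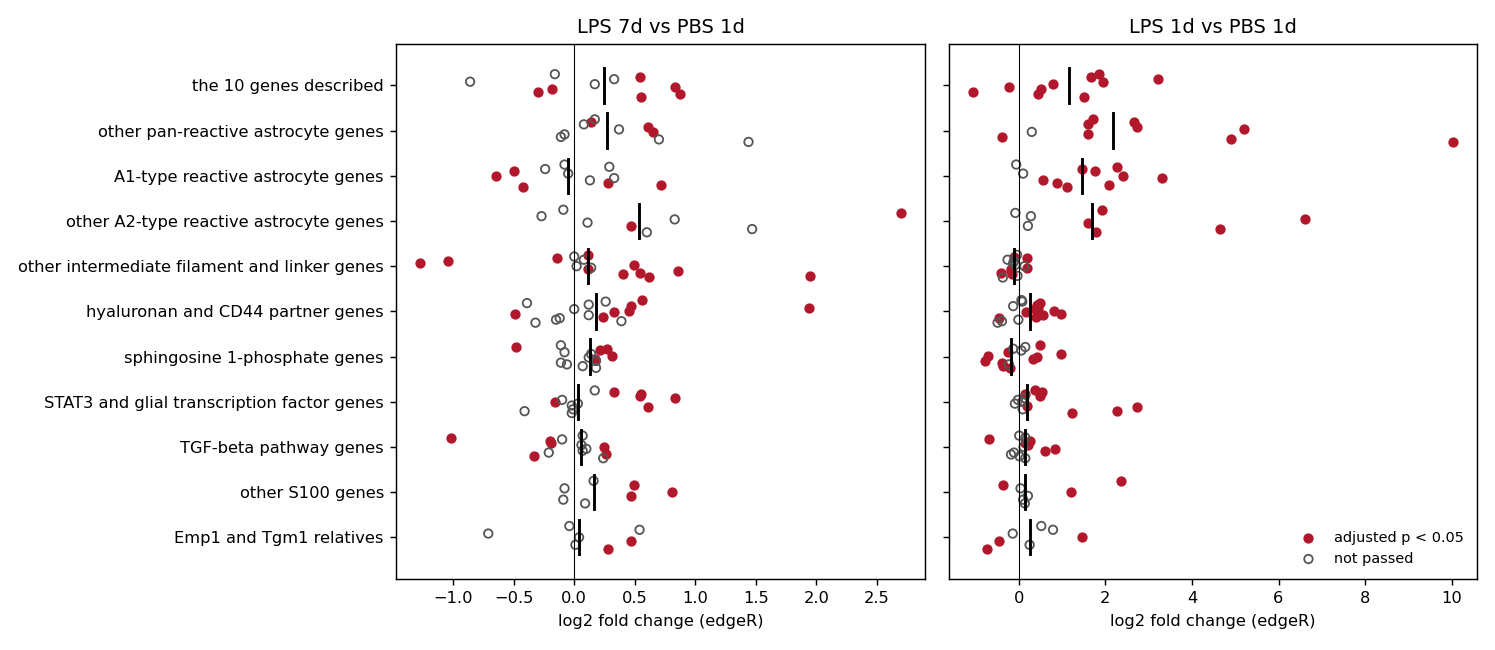
Log2 fold changes (edgeR, horizontal axes, with a different scale in each panel) of the tested genes of each list, LPS at 7 days relative to PBS on the left and LPS at 1 day relative to PBS on the right. Filled points passed an adjusted p of 0.05, open points did not, and the bar is the median, which for the 10 genes described is 0.25 at 7 days and 1.15 at 1 day.

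The other filament and linker genes, most of them neuronal or nuclear, did not share the course of Gfap. Of 15 tested, 2 rose and 5 fell in LPS at 1 day relative to PBS, with a median of -0.12, and 8 rose and 3 fell in LPS at 7 days relative to PBS, with a median of 0.11. Over all genes 24.9% rose and 24.2% fell at 1 day, and 16.8% rose and 18.9% fell at 7 days. The neurofilament gene Nefm averaged 488 ± 20.6 CPM in LPS at 7 days, 253 ± 13.6 CPM in LPS at 1 day and 337 ± 10 CPM in PBS (log2 fold change -0.41 ± 0.04 at 1 day, edgeR adjusted p = 3.55e-12). Nefh, the heavy neurofilament gene, was higher at 7 days than in PBS (0.86 ± 0.04, edgeR adjusted p = 1.32e-22), in the libraries that also held more cerebellar neuron transcripts. Plec, the gene of the filament linker plectin, rose slightly at 1 day (0.18 ± 0.04, edgeR adjusted p = 0.000216).

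Around Cd44, 16 genes of hyaluronan and of CD44's partners were tested, and 9 rose and 1 fell at 1 day relative to PBS (median 0.26), while 6 rose and 1 fell at 7 days (median 0.18). The shares over all genes were 24.9% up and 24.2% down at 1 day, and 16.8% up and 18.9% down at 7 days. Ezr and Msn, whose products ezrin and moesin tie CD44 to the actin cytoskeleton, rose at 1 day by 0.98 ± 0.06 (edgeR adjusted p = 6.45e-20) and 0.82 ± 0.07 (edgeR adjusted p = 2.79e-14). At 7 days Ezr was below PBS (-0.49 ± 0.06, edgeR adjusted p = 6.43e-09) and Msn above it (0.45 ± 0.07, edgeR adjusted p = 5.56e-07). Spp1, the gene of osteopontin, a secreted CD44 ligand, was higher at 7 days (1.94 ± 0.12, edgeR adjusted p = 1.25e-19), with 23.9 ± 0.465 CPM in LPS at 7 days, 8.35 ± 1.64 CPM in LPS at 1 day and 6.23 ± 0.514 CPM in PBS. The LPS libraries at 7 days also held more cerebellar neuron transcripts, and the part of other tissue in the Spp1 values was not tested.

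Around Sphk1, 14 genes of sphingosine 1-phosphate were tested, of which 4 rose and 6 fell at 1 day relative to PBS, with a median of -0.17. Over all genes 24.9% rose and 24.2% fell. Spns2, a transporter that exports the lipid, rose by 0.98 ± 0.06 (edgeR adjusted p = 2.32e-20), whereas the receptor genes S1pr1 (-0.36 ± 0.04, edgeR adjusted p = 3.1e-09) and S1pr5 (-0.78 ± 0.09, 2.88e-10) fell, as did the phosphatase gene Sgpp2 (-0.71 ± 0.06, 1.07e-13). In LPS at 7 days against PBS 4 of the 14 rose and 1 fell, where 16.8% of all genes rose and 18.9% fell. The count of rises among the 14 was 8 with library totals as the only scaling and 2 without the second PBS library.

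Among 13 genes of STAT3 signalling and glial transcription factors 8 rose and none fell at 1 day relative to PBS (median 0.20). Over all genes 24.9% rose and 24.2% fell. Under upper-quartile scaling 1 of the 13 fell. Stat3, the transcription factor downstream of interleukin 6 type receptors, averaged 84.7 ± 4.65 CPM in LPS at 7 days, 202 ± 4.46 CPM in LPS at 1 day and 85.8 ± 3.25 CPM in PBS. Its log2 fold change was 1.23 ± 0.05 at 1 day (edgeR adjusted p = 1.26e-27) and -0.02 ± 0.05 at 7 days relative to PBS (edgeR adjusted p = 0.787). Socs3, a feedback inhibitor of that pathway, rose by 2.26 ± 0.17 at 1 day (edgeR adjusted p = 2.52e-16). Nfia, a transcription factor gene, was higher at 7 days than in PBS (0.83 ± 0.07, edgeR adjusted p = 5.41e-15), in the libraries that also held more cerebellar neuron transcripts. The part of other tissue or of neurons in the Nfia values was not tested.

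Of 13 genes of the transforming growth factor beta pathway, to which Cd109 belongs as an antagonist, 5 rose and 1 fell at 1 day relative to PBS (median 0.15). For this and the next 2 lists, the shares over all genes at 1 day were 24.9% up and 24.2% down. The receptor genes Tgfbr3 (0.84 ± 0.09, edgeR adjusted p = 1.06e-11) and Tgfbr2 (0.60 ± 0.08, 3.59e-09) rose, and Smad7, an inhibitor of the pathway, fell (-0.68 ± 0.08, 9.92e-10). In LPS at 7 days against PBS 2 rose and 4 fell, where 16.8% of all genes rose and 18.9% fell. The rises among the 13 were 1 in DESeq2, with the replicate number as a block, and when PBS replicate 1 or 2 or LPS 7-day replicate 1 or 3 was left out. The list of other S100 genes also held the receptor gene Ager. Of its 7 genes tested 2 rose (Ager and S100a11) and 1 fell at 1 day, and 3 rose at 7 days. S100a16 shared the signs of S100b, with -0.36 ± 0.08 at 1 day (edgeR adjusted p = 0.000223) and 0.49 ± 0.08 at 7 days (edgeR adjusted p = 4.03e-07). Of 7 relatives of Emp1 and Tgm1, 1 rose and 2 fell at 1 day: Tgm2, another transglutaminase gene, rose by 1.46 ± 0.10 (edgeR adjusted p = 4.09e-17), and Emp2 (-0.74 ± 0.09, 3.83e-09) and Pmp22 (-0.45 ± 0.09, 2.25e-05) fell. The rises in that list were 2 without the second PBS library.

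**Figure D5:**
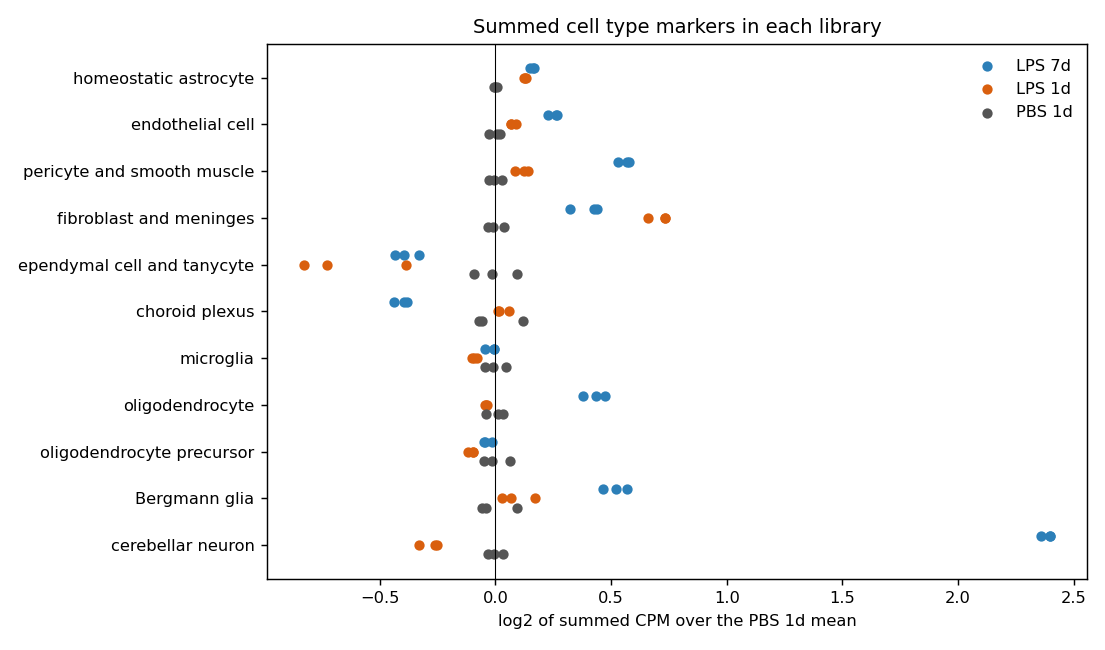
Summed CPM of the markers of each cell type in each library, as log2 of the ratio to the PBS mean (horizontal axis). Cerebellar neuron markers are far higher in LPS at 7 days, with sums of 1123 to 1154 CPM against 214 to 224 CPM in PBS. The sum of the homeostatic astrocyte markers is slightly higher in both LPS groups, with single genes of that list higher or lower.

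Relative to the homeostatic astrocyte genes, 8 of which rose and 6 fell at 1 day relative to PBS (median 0.07) and 11 rose and 1 fell at 7 days (median 0.26), the other 9 genes kept the side of 1 that their CPM had at 1 day. For every 100 counts of the astrocyte list there were 3.05 S100b counts in LPS at 7 days, 1.5 in LPS at 1 day and 1.92 in PBS. Vim had 0.783, 0.596 and 0.477, and Nes 0.204, 0.123 and 0.279 in the same groups. The falls in the astrocyte list at 1 day were 3 without the third LPS library at that day. Microglial markers, 6 genes, summed to 247 to 254 CPM in LPS at 7 days, 238 to 241 CPM in LPS at 1 day and 247 to 263 CPM in PBS. Oligodendrocyte precursor markers, 5 genes, summed to 194 to 199, 185 to 188 and 194 to 210 CPM, and choroid plexus markers, 6 genes, to 347 to 361, 473 to 489 and 448 to 510 CPM in the same groups.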

How the data were processed

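RNA sequencing of PVT tissue of 9 libraries in 3 groups of 3 was analysed, with groups taken from the sample labels. Per the labels, Trizol was used for the extraction of total RNA and a TruSeq RNA kit for the libraries. The authors deposited raw counts per gene, made from reads aligned to GRCm39, and the submitters' processing notes list HTSeq, HISAT2 and TopHat2. The sources used here give neither their roles and versions nor whether counting used the strand. The FPKM values were deposited with the counts, and values recomputed from the counts departed from them by a relative 1.6e-07 at most. Other columns of the table (position, strand, length and name) were used as deposited. Positions of genes are 1-based on GRCm39, and promoter sequences are RefSeq's on GRCm38.p6, so the positions of the genes and of the sequences cannot be set against each other.

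Counts were fitted in edgeR 4.0.16 (R 4.3.3) with TMM factors, filterByExpr (minimum count 10), 1 mean per group and quasi-likelihood tests on contrasts, two-sided, adjusted by Benjamini and Hochberg over 14837 genes tested of 21899. The common biological coefficient of variation was 4.15%, with 6 residual and 43.4 prior degrees of freedom. Standard errors were derived as the absolute log2 fold change over the square root of the F statistic. Replicates of a group differed by more than sampling noise in every pair (chi-square per degree of freedom 2.01 to 3.62), and all were kept. Libraries of the same replicate number had correlations of the deviations from -0.0232 to 0.027, with no sign shared by all pairs of groups. Between LPS at 1 day and LPS at 7 days they were 0.0259, 0.0261 and 0.0223, while all pairs of different number were negative. Deviations are taken from the group mean, so positive correlations for the same number pull the others down. The signs are therefore not independent. The fit was tested on simulated data with known changes. Alternatives were DESeq2 1.42.0, limma-voom (limma 3.58.1), other scalings, no filter, the replicate block, the compared groups alone and leaving out each library.

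The genes, the lists and the motifs were chosen with earlier results of these data known. All 10 genes are described, and of each list the text names genes among the 4 with the smallest p at 1 day, the 2 that changed against their list and the 2 with the smallest p at 7 days. No other selection was made except for Aldh1l1, Aqp4, Ly6g and the 5 thalamic transcripts, which were chosen after their values were seen.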

Additional observations from a re-analysis of the deposited data

Results flagged for a closer look

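Synm and S100b stood out because LPS at 1 day and LPS at 7 days lay on opposite sides of PBS, both past the threshold. The comparison of the days tested this difference directly, and both comparisons with PBS share the PBS libraries. For Synm, LPS at 7 days minus LPS at 1 day was -0.69 on the log2 scale, with Synm above PBS at 1 day and below it at 7 days. For S100b it was 1.06, with S100b below PBS at 1 day and above it at 7 days. The annotated spans of Synm and S100b each overlap with that of a gene on the other strand, and the part of those genes in the values was not tested.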

How the results depend on the processing

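In every setting tried all 10 genes changed in LPS at 1 day relative to PBS and in LPS at 7 days relative to LPS at 1 day. In LPS at 7 days relative to PBS 6 changed in edgeR, 4 in DESeq2, 5 with library totals as the only scaling, 5 with the compared groups alone and 4 to 6 when a library was left out. The calls lost were those of Nes, Sphk1 and Synm. With the replicate number as a block, which the labels do not say marks a shared animal or day, the counts of the 10 genes stayed at 10, 6 and 10, and the counts of all genes were 7144 at 1 day relative to PBS, 5139 at 7 days relative to PBS and 8270 between the days. Without the block they were 7289, 5287 and 8399. A library had its best partner in another group under its own number in 8 of 18 cases. DESeq2 called 6603, 4734 and 7826 genes. Left-out libraries gave 6371 to 7484, 4629 to 5304 and 7584 to 8531 genes. Of the genes changed in LPS at 7 days relative to PBS 2489 of 5287 were higher, but 3183 of 5509 with library totals as the only scaling. The ratio of Gfap to Aqp4 counts in LPS at 7 days over PBS was 0.902, against 1.31 for the astrocyte list, and the cause was not tested. Leaving out a library gave ratios to the astrocyte list of 2.58 to 2.64 at 1 day over PBS, 1.29 to 1.33 at 7 days over PBS and 0.496 to 0.51 between the days. The log2 fold changes of the 10 genes passed or failed as in edgeR under 496 gene and setting combinations and lost the call in 13. Depth limits Tgm1 most, with at most 23 counts in a library.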
